A study of Mus musculus with 10 samples.

Results

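Mouse samples treated with TNF-alpha were compared between late times (6 and 24 h) and an early time (1.5 h) within each genotype. The members were 6 of the 10 two-colour arrays of the series, 4 late and 2 early, taken by the genotype and time in their titles. The 6 groups held 1 array each: wild type (WT) and Sirt6 knockout (KO, Sirt6-/- in the series title), each treated with TNF-alpha for 1.5, 6 or 24 h. All 6 groups shared the treatment, and the 4 untreated arrays entered no late against early comparison and served only to read the direction of the ratio. The sources used here do not give cell type, strain, age or the dose of TNF-alpha, or whether the arrays came from separate cultures. Every error and p-value therefore measures the spread between these arrays, which may be technical. Each array set a sample labelled with Cy5 against a universal mouse reference RNA labelled with Cy3.

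TNF-alpha is a cytokine that binds receptors at the cell surface and leads to degradation of the inhibitor encoded by Nfkbia, which frees the transcription factor NF-kB. NF-kB then drives chemokine and cytokine genes and also its own inhibitors, among them Nfkbia and Tnfaip3, so that the early wave is followed by feedback. Later waves of the response are known to include matrix proteases, adhesion molecules and antigen presentation genes. Sirt6 encodes a deacetylase of histone H3 that is known to restrain NF-kB target promoters.

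The promoters of 3 NF-kB targets are printed because Cxcl1 and Cxcl10 had lower late values in both genotypes, while Nfkbia is the classical feedback gene. The sequences are the 250 bases before the RefSeq start of each gene in GRCm38.p6, 5′ to 3′ on the gene's strand, with matches to the NF-kB consensus site in capitals. The Cxcl1 window lies at chr5:90890995-90891244 on the plus strand, the Cxcl10 window at chr5:92348890-92349139 on the minus strand and the Nfkbia window at chr12:55492648-55492897 on the minus strand.
Cxcl1: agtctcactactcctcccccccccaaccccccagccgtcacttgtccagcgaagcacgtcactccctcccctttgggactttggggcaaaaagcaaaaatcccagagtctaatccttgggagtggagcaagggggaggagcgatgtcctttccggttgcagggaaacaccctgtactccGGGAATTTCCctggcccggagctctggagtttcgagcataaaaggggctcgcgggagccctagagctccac
Cxcl10: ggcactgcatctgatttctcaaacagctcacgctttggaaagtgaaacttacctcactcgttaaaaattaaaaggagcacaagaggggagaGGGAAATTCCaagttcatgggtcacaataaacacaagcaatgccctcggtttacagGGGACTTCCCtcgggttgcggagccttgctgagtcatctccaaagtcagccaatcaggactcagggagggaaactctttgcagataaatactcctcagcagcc
Nfkbia: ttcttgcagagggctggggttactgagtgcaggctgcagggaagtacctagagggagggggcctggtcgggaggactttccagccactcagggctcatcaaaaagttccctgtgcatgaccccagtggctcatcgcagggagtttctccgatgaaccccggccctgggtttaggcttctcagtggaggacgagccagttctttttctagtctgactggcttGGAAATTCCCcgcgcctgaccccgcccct
The match begins 71 bases before the start in Cxcl1 and 29 bases before it in Nfkbia, and the matches in Cxcl10 begin 159 and 103 bases before it. Both strands were searched, and overlapping matches were counted once. Of all 32851 RefSeq windows of 300 bases (250 before to 50 after a start), 4.51% held the consensus. A match describes letters and shows neither binding nor a cause.

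Values are log ratios of Cy5 over Cy3, read as log2, with each array centred on its median over genes, so that 0 is the array's median gene. Neither base nor direction is stated in the labels. Under this reading, with arrays centred over the genes of all 10 arrays, Ccl2 lay between -0.60 and -0.28 on the untreated arrays and between 2.11 and 2.77 on the treated arrays, and Nfkbia between -1.83 and -1.12 and between -0.20 and 0.059. The deposited medians of the 6 arrays over spots ran from -0.255 to -0.004, and pairs of arrays correlated at 0.588 to 0.785 across genes. At 1.5, 6 and 24 h the SD over genes was 0.52, 0.75 and 0.73 in WT and 0.69, 0.55 and 0.66 in KO. Values thus spread more widely late in WT and less widely late in KO. The part of this spread in WT and KO values of opposite sign was not tested. Complete values on the 6 arrays were held by 37767 of 38784 spots, which gave 14564 genes, 9731 of them from 1 probe. The number of arrays limits the precision. Numbers in the array labels run in the order of time within each genotype, so array order and time cannot be told apart.

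Sirt6 values checked the genotype labels. The WT arrays read -0.15, 0.085 and -0.16 at 1.5, 6 and 24 h, and the KO arrays -0.75, -1.16 and -0.051. The array labelled KO at 24 h lay within the WT range, so the late minus early estimates of the genes shown array by array, and of single genes that moved by more than 0.1 (log2) without it, are given with and without it. Of 89 genes examined singly 20 moved by more than 0.1, as did 2 of 33 list medians. The Sirt6 values are means of 2 probes, which read -0.35 and -1.96 on the KO 6 h array. The first of these also lay within the WT range of its probe, -0.38 to 0.23. Whether either Sirt6 probe targets the deleted sequence is not known. The estimate for Sirt6 was log2 0.13 (SE 0.32), or -0.11 with the array labelled KO at 24 h left out.

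Late minus early TNF was estimated as the mean over both genotypes, in a model with genotype and lateness as terms. No gene passed: 0 of 14564 (0%) had an adjusted p under 0.05 in limma, and the smallest adjusted p was 0.9805. At an unadjusted p under 0.05 there were 680 genes (4.67%), with 455 higher (3.12%) and 225 lower (1.54%) late. Without centring of the arrays the split was 219 higher and 408 lower, with the median of all genes at -0.075 in place of 0.011. With the array labelled KO at 24 h left out, the count was also 0, with 281 higher and 179 lower at an unadjusted p under 0.05. Among the 657 genes of the functional lists that were tested, 0 passed, while 36 (5.48%) were higher and 11 (1.67%) lower at an unadjusted p under 0.05. Of those 89 genes, 86 kept their direction without that array. Sirt6, Ccl7 and Sele reversed, and Tnf, Ccl20 and Birc3 moved by more than 1.5 times. The fit without that array weights the WT difference more than the KO difference. Its estimates are therefore not equal means of the genotypes, and part of a move can come from the weights. The spread in the model of all 6 arrays holds the difference between 6 and 24 h and between the genotypes. All directions that follow are estimates that did not pass, with their standard error (SE, n = 4 late and 2 early arrays). Many of the genes described were chosen by the size of these same differences. Where their late and early values do not overlap, that adds no support, and the share of all genes without overlap was not counted.

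Among CXC chemokines, Cxcl1 and Cxcl10 had lower late values in all 4 pairs of a late and an early array within a genotype, and Cxcl12 and Cxcl5 higher ones. Cxcl1, a neutrophil attractant, had the largest negative estimate of the CXC list. Its levels at 1.5, 6 and 24 h were -1.66, -2.07 and -2.49 in WT and -1.23, -2.69 and -2.06 in KO. Late and early values did not overlap, and the late ones were lower. This gave a late minus early log2 of -0.88 (SE 0.27), against -0.98 when leaving out the array labelled KO at 24 h. Cxcl10, a T cell attractant induced by interferon and NF-kB, ran the same way. Cxcl10 stood at 0.16 at 1.5 h in WT, then -0.11 and -0.35 at 6 and 24 h, and at 0.82, 0.21 and -0.027 in KO. The late values did overlap the early ones across genotypes, because the KO 6 h value exceeded the WT 1.5 h value, yet within each genotype both late values were the lower ones. Cxcl10 had a late minus early log2 of -0.56 (SE 0.20), which was -0.49 on leaving out the array labelled KO at 24 h. Cxcl12, a constitutive stromal chemokine, had the opposite pattern in the mean of its 4 probes, which rests on 1 probe with a late minus early log2 of 1.84, while the other 3 gave -0.14 to 0.21. At 1.5, 6 and 24 h Cxcl12 measured -0.22, 0.18 and 0.20 in WT and -0.20, 0.21 and 0.44 in KO. Late and early values did not overlap, and the late ones were higher. Its log2 difference, late minus early, was 0.47 (SE 0.18) with all arrays and 0.41 after leaving out the array labelled KO at 24 h. Cxcl5, another neutrophil attractant, was likewise higher late, with log2 0.75 (SE 0.33), or 0.52 without the array labelled KO at 24 h. Over the 14 CXC and CX3C chemokines tested, 5 had estimates above 0 and 9 below, with a median of -0.15, against 51.8% above 0 and a median of 0.011 over all genes.

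Of the CC chemokines, Ccl2, Ccl7 and Ccl20 were far above the reference at every time. Ccl2, a monocyte attractant and a strong TNF-alpha target, stayed high from 1.5 to 24 h. Levels of 2.12, 2.68 and 2.77 were found in WT and of 2.77, 2.32 and 2.66 in KO, in the order of time. The early value was the lowest in WT and the highest in KO. Late minus early was 0.17 on the log2 scale (SE 0.26), and 0.16 after leaving out the array labelled KO at 24 h. With arrays scaled to equal spread the Ccl2 estimate was -0.14. Ccl7 and Ccl20 were named after their values were seen. Ccl7, a monocyte attractant, had high values throughout. Over 1.5, 6 and 24 h the Ccl7 values in WT were 2.40, 2.28 and 2.83, and those in KO 2.87, 2.48 and 2.997. The 24 h value was the highest in each genotype, and the 6 h value the lowest. Its estimate was 0.011 (SE 0.25) and turned to -0.27 after quantile normalization and to -0.080 on leaving out the array labelled KO at 24 h. Ccl20, an attractant of dendritic and T helper cells, peaked at different times. In WT the level was 2.07 at 1.5 h, 3.14 at 6 h and 1.77 at 24 h, and in KO it was 3.44, 2.58 and 2.43. The highest WT value was at 6 h and the highest KO value at 1.5 h. The estimate for Ccl20 was log2 -0.28 (SE 0.44), or -0.15 with the array labelled KO at 24 h left out. Over the 20 CC chemokines 11 estimates lay above 0, with a median of 0.012 that became -0.045 after quantile normalization.

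Cytokine ligands gave no shared direction. Tnf itself, the gene of the cytokine used, ran in opposite directions in the genotypes. The WT arrays read -0.14, -0.65 and -1.15 at 1.5, 6 and 24 h, and the KO arrays -0.65, 0.069 and -0.16. It was lower late in WT and higher late in KO. This gave a late minus early log2 of -0.078 (SE 0.34), against -0.13 when leaving out the array labelled KO at 24 h. Il6, an interleukin of the acute phase response, was lower late in all 4 pairs, with log2 -0.52 (SE 0.24), and Csf1, a macrophage growth factor, with log2 -0.41 (SE 0.24). Over the 21 interleukins and colony-stimulating factors 14 estimates lay above 0, and the median was 0.067. That median was -0.12 in WT and 0.35 in KO, and 9 of the 21 genes had the same sign in both. The receptors and adaptors of the TNF pathway, 20 genes, had 13 above 0 and a median of 0.10, which was 0.036 after leaving out the array labelled KO at 24 h.

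**Figure D1:**
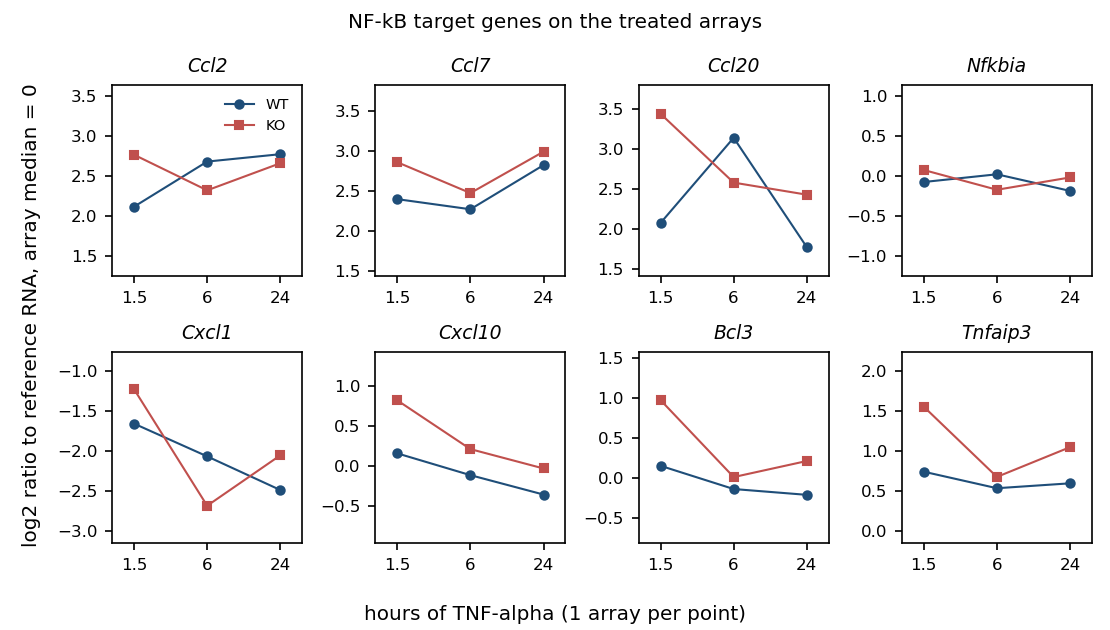
Log2 ratio to the reference RNA (y axis, array median at 0) against hours of TNF-alpha (x axis, categories not to scale) for 8 NF-kB target genes, 1 array per point, circles for WT and squares for KO. The late values of Cxcl1 lie below both early values, the 6 values of Ccl2 stay between 2.12 and 2.77, and the KO 1.5 h value is the highest of the 6 for Cxcl10, Bcl3, Tnfaip3 and Ccl20.

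Intracellular inhibitors of NF-kB mostly had estimates below 0 over both genotypes. Nfkbia, which encodes the inhibitor IkB-alpha, was nearly level. Its levels at 1.5, 6 and 24 h were -0.080, 0.017 and -0.19 in WT and 0.070, -0.18 and -0.023 in KO. The late values overlap the early ones. Nfkbia had a late minus early log2 of -0.089 (SE 0.19), which was -0.11 on leaving out the array labelled KO at 24 h. Tnfaip3, the ubiquitin-editing inhibitor A20, was highest on the KO 1.5 h array. Tnfaip3 stood at 0.74 at 1.5 h in WT, then 0.53 and 0.59 at 6 and 24 h, and at 1.55, 0.67 and 1.04 in KO. Both late values lay below the early value in each genotype, although the ranges over both genotypes overlap. Its log2 difference, late minus early, was -0.43 (SE 0.22) with all arrays and -0.48 after leaving out the array labelled KO at 24 h. Bcl3, an atypical IkB protein that works in the nucleus, had a like course. At 1.5, 6 and 24 h Bcl3 measured 0.15, -0.14 and -0.21 in WT and 0.97, 0.011 and 0.21 in KO. Both late values were the lower ones in each genotype. Late minus early was -0.59 on the log2 scale (SE 0.21), and -0.60 after leaving out the array labelled KO at 24 h. Birc3, an apoptosis inhibitor at the TNF receptor, had a late minus early log2 of 0.12 in WT and -0.79 in KO, and its mean over both moved from -0.33 to -0.17 without the array labelled KO at 24 h. Over the 20 inhibitors and feedback genes 15 estimates lay below 0 and 5 above, with a median of -0.081. In all 4 pairs 0 were higher and 3 (15%) lower, against 13.3% and 9.37% of all genes. The sign was the same in WT and KO for 9 of the 20. The median was -0.13 leaving out the array labelled KO at 24 h.

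The transcription factor subunits had estimates close in size to their SE. Rel had a late minus early log2 of 0.22, Relb of -0.30, Rela of -0.16 and Nfkb2 of 0.15, with SEs of 0.19, 0.26, 0.20 and 0.20. Of 18 inhibitor and feedback genes with a RefSeq promoter window, 8 held the NF-kB consensus site, as did 4 of 12 CXC and CX3C chemokines and 3 of 14 CC chemokines. The site was in 4.51% of all windows, a share per window, while a gene counted here if any of its windows matched. These counts describe the lists and do not bear on late against early TNF.

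Immediate early genes, which respond to stimuli without new protein synthesis, gave no common direction. Ccn1, a secreted matricellular protein also known as Cyr61, had the largest estimate of the list. Levels of 0.24, 1.14 and 1.16 were found in WT and of 0.17, 0.95 and 1.02 in KO, in the order of time. Each late value exceeded both early values. The estimate for Ccn1 was log2 0.86 (SE 0.18), or 0.85 with the array labelled KO at 24 h left out. Egr1, a zinc finger transcription factor, was far below the reference throughout. Over 1.5, 6 and 24 h the Egr1 values in WT were -2.46, -3.16 and -3.37, and those in KO -2.79, -3.27 and -3.37. All 4 late values lay below both early values. This gave a late minus early log2 of -0.67 (SE 0.19), against -0.66 when leaving out the array labelled KO at 24 h. Klf6, a zinc finger factor, was higher late in all 4 pairs, with log2 0.54 (SE 0.21), but its KO values all exceeded its WT values. Of 37 immediate early genes 20 had estimates above 0, with a median of 0.035.

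Genes of the extracellular matrix and its turnover held some of the larger estimates. Thbs1, thrombospondin 1, an adhesive matrix glycoprotein, was near the reference early and above it late. In WT the level was 0.085 at 1.5 h, 1.90 at 6 h and 2.16 at 24 h, and in KO it was 0.27, 1.43 and 1.30. All 4 late values exceeded both early values by more than 1 log2 unit. Thbs1 had a late minus early log2 of 1.52 (SE 0.25), which was 1.61 on leaving out the array labelled KO at 24 h. The estimate is a 2.87-fold difference if the base is 2. Mmp3, the protease stromelysin 1, was below the reference on all arrays and least so at 24 h. The WT arrays read -1.82, -1.44 and -0.65 at 1.5, 6 and 24 h, and the KO arrays -2.71, -1.30 and -0.52. Both early values lay below the late values of either genotype. Its log2 difference, late minus early, was 1.29 (SE 0.37) with all arrays and 1.04 after leaving out the array labelled KO at 24 h. Mmp14, a membrane-anchored collagenase, gave another pattern. Its levels at 1.5, 6 and 24 h were 0.48, 1.40 and 1.71 in WT and 1.92, 2.13 and 2.33 in KO. Both late values were the higher ones in each genotype, but the KO early value exceeded both WT late values. Late minus early was 0.69 on the log2 scale (SE 0.24), and 0.70 after leaving out the array labelled KO at 24 h. Mmp10, stromelysin 2, had log2 0.73 (SE 0.28). Mmp8, neutrophil collagenase, was named after its values were seen. Mmp8 stood at 0.011 at 1.5 h in WT, then -0.85 and 0.44 at 6 and 24 h, and at -1.02, 3.28 and 0.16 in KO. The KO 6 h value stands apart from the other 5. It is the mean of 2 probes at 6.265 and 0.286, whose late minus early values were 2.21 and 0.31. The estimate for Mmp8 was log2 1.26 (SE 0.98), or 1.72 with the array labelled KO at 24 h left out. The median of all 23 proteases and inhibitors was 0.014, which was -0.017 after quantile normalization and -0.080 leaving out the array labelled KO at 24 h. The collagens included lower late values of Col3a1, a fibrillar collagen, with log2 -0.50 (SE 0.20) and all 4 pairs lower. Elastic fibre genes had 12 of 17 estimates above 0 and a median of 0.098, which was 0.0048 with arrays scaled to equal spread. The median of these elastic fibre genes was 0.31 in WT and -0.0995 in KO, and 7 of the 17 had the same sign in both. Their list contains Fbn2, a microfibril protein, with log2 0.83 (SE 0.32), or 0.59 leaving out the array labelled KO at 24 h, and Fbln2, a microfibril-associated protein, with 0.57 (SE 0.22).

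Surface adhesion molecules differed among themselves. Selp, P-selectin, which captures rolling leukocytes, was higher late on all arrays but by unequal amounts. At 1.5, 6 and 24 h Selp measured -0.42, 0.60 and -0.0013 in WT and -0.41, 0.66 and 0.68 in KO. The late group lay wholly above the early group. This gave a late minus early log2 of 0.90 (SE 0.23), against 0.87 when leaving out the array labelled KO at 24 h. Icam1, a ligand of leukocyte integrins, had its lowest value on the WT 24 h array. Levels of -0.54, -0.24 and -1.88 were found in WT and of 0.021, 0.17 and -0.026 in KO, in the order of time. The other late values lay above the early value of their genotype, apart from a small shortfall at KO 24 h. Icam1 had a late minus early log2 of -0.24 (SE 0.44), which was -0.23 on leaving out the array labelled KO at 24 h. Vcam1, also an integrin ligand, had log2 -0.14 (SE 0.25), with -0.43 in WT and 0.16 in KO. Sele, E-selectin, had 0.11 (SE 0.37), or -0.12 leaving out the array labelled KO at 24 h, and Madcam1, a mucosal addressin, 0.46 (SE 0.21). Among acute phase genes Saa1, serum amyloid A1, was higher late in all 4 pairs with log2 0.84 (SE 0.29), or 0.67 leaving out the array labelled KO at 24 h, and Orm2, orosomucoid 2, lower in all 4 with -0.74 (SE 0.30).

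**Figure D2:**
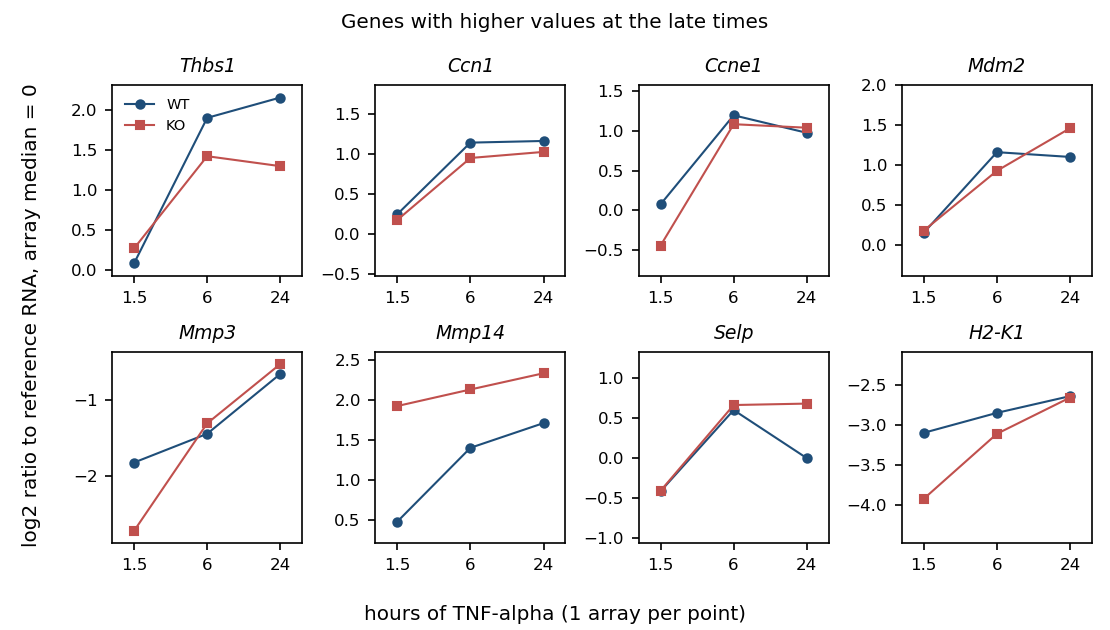
Log2 ratio to the reference RNA (y axis, array median at 0) against hours of TNF-alpha (x axis, categories not to scale) for 8 genes described with higher late values, 1 array per point, circles for WT and squares for KO. The genes were picked for higher late values. In each of the 8 both late values exceed the early value of the same genotype, as in 13.3% of all genes. In all but Mmp14 and H2-K1 the 4 late values exceed both early values, a property not counted over all genes.

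Cell cycle and replication genes had more estimates above 0 than below. Ccne1, cyclin E1, which drives entry into DNA synthesis, had the largest estimate of its list. Over 1.5, 6 and 24 h the Ccne1 values in WT were 0.076, 1.19 and 0.97, and those in KO -0.44, 1.08 and 1.03. These are means of 2 probes that read 1.56 and -2.44 on the KO 1.5 h array, and for the first of them that value exceeded the KO 6 h value of 1.36. In the mean the late values lay near 1 and the early values near or below 0. Its log2 difference, late minus early, was 1.25 (SE 0.20) with all arrays and 1.23 after leaving out the array labelled KO at 24 h. Cdc20, an activator of the anaphase-promoting complex, was also higher late. In WT the level was -0.47 at 1.5 h, -0.021 at 6 h and 0.31 at 24 h, and in KO it was -1.39, -0.29 and -0.13. In this mean of 3 probes all 4 late values lay above both early values. Late minus early was 0.90 on the log2 scale (SE 0.22), and 0.82 after leaving out the array labelled KO at 24 h. The 3 probes read 0.009, -1.56 and -2.63 on the KO 1.5 h array. For the first of them the KO 6 h value was lower, at -0.67. Rrm2, a subunit of ribonucleotide reductase, had log2 0.68 (SE 0.21), and Cdk1, the mitotic kinase, 0.50 (SE 0.20), each higher in all 4 pairs. The 4 probes of Rrm2 gave -0.12, 0.17, 1.33 and 1.34. Of 44 genes 32 had estimates above 0 (72.7%), with a median of 0.21, and 13 were higher in all 4 pairs (29.5%, against 13.3% of all genes). The median was 0.029 in WT alone and 0.27 in KO alone, and 0.15 leaving out the array labelled KO at 24 h. The KO 1.5 h array held the lowest median level of the list, -0.91, while the other 5 arrays lay between -0.58 and -0.35.

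Of 21 regulators of p53 and apoptosis 13 had estimates above 0, with a median of 0.25 in WT and -0.024 in KO, and 4 were higher and 0 lower at an unadjusted p under 0.05, against 3.12% and 1.54% of all genes. Mdm2, the ubiquitin ligase and target of p53, was one of them. The WT arrays read 0.15, 1.16 and 1.10 at 1.5, 6 and 24 h, and the KO arrays 0.18, 0.93 and 1.46. Late and early values did not overlap, and the late ones were higher. The estimate for Mdm2 was log2 0.995 (SE 0.21), or 0.88 with the array labelled KO at 24 h left out. Pmaip1, the p53 target Noxa, had log2 0.67 (SE 0.22), Apaf1, the apoptosome scaffold, 0.66 (SE 0.19), and the survival gene Bcl2l1 0.51 (SE 0.19). The median over both genotypes was 0.11, and it was 0.00071 leaving out the array labelled KO at 24 h. Among growth factor genes Igf2r, a receptor that clears IGF2 and sorts lysosomal enzymes, had log2 0.83 (SE 0.21).

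Antigen presentation genes of MHC class I had median levels below the reference on every array, from -1.21 to -0.62. H2-K1, a classical class I heavy chain, was far below the reference on all 6. Its levels at 1.5, 6 and 24 h were -3.10, -2.85 and -2.64 in WT and -3.92, -3.11 and -2.65 in KO. Both late values were the higher ones in each genotype, by less in WT, and the KO 6 h value lay just below the WT 1.5 h value. This gave a late minus early log2 of 0.70 (SE 0.25), against 0.55 when leaving out the array labelled KO at 24 h. Tapbp, tapasin, which loads peptides onto class I molecules, had log2 0.72 (SE 0.21), and Pdia3, an oxidoreductase of the loading complex, 0.69 (SE 0.29), which were 0.62 and 0.56 without the array labelled KO at 24 h. Of 15 genes 13 had estimates above 0, with a median of 0.22 that was 0.21 without that array. The median was 0.13 in WT and 0.52 in KO, and class I heavy chain genes are close copies whose probes may not separate them. Interferon-stimulated genes had 16 estimates on each side of 0, with a median of -0.27 in WT and 0.17 in KO. Ifit1, an antiviral RNA-binding protein, had log2 0.92 (SE 0.35), or 0.62 leaving out the array labelled KO at 24 h, and Oas1a, an oligoadenylate synthetase, -0.48 (SE 0.18).

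Genes of protein quality control and synthesis had medians somewhat above that of all genes. Of 22 heat shock and unfolded protein response genes 14 had estimates above 0, with a median of 0.20. Their largest estimate was that of Asns, asparagine synthetase, with log2 0.78 (SE 0.20), and Atf4, the transcription factor of the amino acid response, had 0.63 (SE 0.19). Each rests on 1 of its 2 probes, with 1.40 against 0.16 for Asns and 1.26 against 0.0071 for Atf4. Proteasome genes had 20 of 25 above 0 and a median of 0.19, with Psma7 at 0.74 (SE 0.21) and Psmc4 at 0.69 (SE 0.20), the latter from probes at 1.34 and 0.052. Ribosomal protein genes had 35 of 42 above 0, but the median was only 0.13, and 0 of them reached an unadjusted p of 0.05. With the array labelled KO at 24 h left out, the ribosomal median was 0.047, the heat shock median 0.12 and the proteasome median 0.15. The direction of each of these 3 medians stayed positive under each of the 4 other scalings of the arrays.

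**Figure D3:**
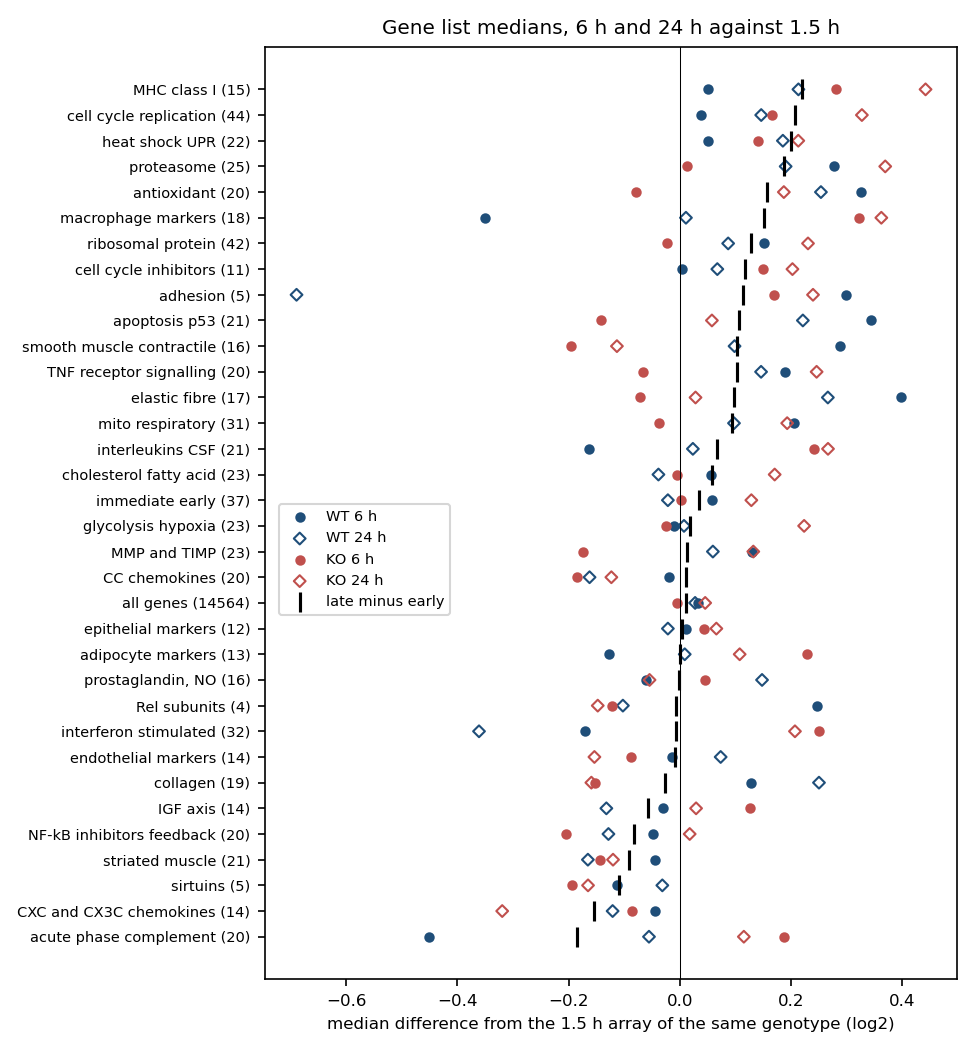
Median difference from the 1.5 h array of the same genotype (x axis, log2) for each gene list (y axis, number of genes tested in brackets), with circles for 6 h, diamonds for 24 h, blue for WT, red for KO and a bar for the median late minus early estimate. The medians of late minus early run from -0.18 for acute phase and complement genes to 0.22 for MHC class I genes, and the 4 arrays of most lists fall on both sides of 0.

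Other metabolic and cell type genes gave single values of similar size. Gpx2, a glutathione peroxidase, had log2 0.85 (SE 0.28), Pkm, pyruvate kinase, 0.55 (SE 0.21), Mvk, mevalonate kinase, 0.47 (SE 0.18), and Arg1, arginase 1, -0.58 (SE 0.19). Markers of other cells were followed because the cell type is not given. Contractile smooth muscle genes had median levels of 1.12 to 2.03 over the 6 arrays, against -1.50 to -0.62 for macrophage markers and -0.37 to -0.21 for epithelial markers. Of 18 macrophage markers 13 had estimates above 0, with a median of -0.14 in WT and 0.33 in KO. Lyz2, a macrophage lysozyme, had log2 0.60 (SE 0.23), or 0.46 without the array labelled KO at 24 h, Krt8, an epithelial keratin, -0.60 (SE 0.22), and the contractile genes Cald1 and Cnn2 1.09 (SE 0.30) and 0.56 (SE 0.21). Krt8 came from probes at -1.12 and -0.077, and Cnn2 from probes at 1.36 and -0.24. The rest of their lists did not share these directions. Of 16 contractile genes 9 had estimates above 0, with a median of 0.25 in WT and -0.22 in KO. Over both genotypes the contractile median was 0.10. It was -0.069 after quantile normalization and -0.11 with arrays scaled to equal spread. Of 12 epithelial markers 6 lay above 0, with a median of 0.0037. The part of other cells in these differences was not tested, and in bulk RNA fewer cells of a type and less RNA per cell cannot be told apart.

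The genes with the largest moderated t among those higher in all 4 pairs came from several processes. Across all genes 1933 (13.3%) were higher and 1364 (9.37%) lower late in all 4 pairs. Ivns1abp, a kelch protein that binds a viral protein, led the list. Ivns1abp stood at -1.91 at 1.5 h in WT, then -0.69 and -0.60 at 6 and 24 h, and at -2.48, -1.26 and -1.50 in KO. Each late value exceeded both early values. Ivns1abp had a late minus early log2 of 1.18 (SE 0.19), which was 1.25 on leaving out the array labelled KO at 24 h. Lats2, a kinase of the Hippo growth control pathway, came next. At 1.5, 6 and 24 h Lats2 measured -0.025, 1.15 and 1.22 in WT and -0.48, 0.72 and 0.47 in KO. The separation of late from early values was complete. Its log2 difference, late minus early, was 1.14 (SE 0.19) with all arrays and 1.21 after leaving out the array labelled KO at 24 h. Tmed9, a cargo receptor between the endoplasmic reticulum and the Golgi, had log2 1.33 (SE 0.24), Trappc3, a vesicle tethering subunit, 1.04 (SE 0.18), and Atp6v1c2, a subunit of the proton pump, 1.35 (SE 0.27). Twf1, an actin-binding protein, had 1.06 (SE 0.19), Qrich1, a transcriptional regulator, 1.17 (SE 0.22), and Prmt1, an arginine methyltransferase, 1.48 (SE 0.28). Ass1, which makes argininosuccinate, had 1.05 (SE 0.20) and Rnf4, a ubiquitin ligase for SUMO-modified proteins, 0.96 (SE 0.19). Without the array labelled KO at 24 h, Qrich1 had 1.05 and Prmt1 1.33. Thbs1 and Ccne1 complete these 12 genes. Of the 11 with a RefSeq promoter window, 0 held the NF-kB consensus site, against 4.51% of all windows. With so few genes a count of 0 does not set them apart from other genes.

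Among the 12 genes lowest by the same rule, Tcaf3, of a family that regulates an ion channel, had the largest estimate. Levels of -0.39, -1.19 and -1.41 were found in WT and of 0.49, -2.27 and -1.94 in KO, in the order of time. All 4 late values lay below both early values, by more in KO. Late minus early was -1.75 on the log2 scale (SE 0.38), and -1.70 after leaving out the array labelled KO at 24 h. Trpc1, a cation channel, had estimates of like size in both genotypes. Over 1.5, 6 and 24 h the Trpc1 values in WT were 0.043, -1.04 and -0.75, and those in KO 0.086, -0.67 and -0.997. Early values lay near the reference and late values below it. The estimate for Trpc1 was log2 -0.93 (SE 0.20), or -0.86 with the array labelled KO at 24 h left out. Flrt1, a leucine-rich repeat membrane protein, had log2 -1.03 (SE 0.21), Lrrc9 -1.11 (SE 0.24), Baz1b, a chromatin remodelling subunit, -1.02 (SE 0.24) or -0.88 leaving out the array labelled KO at 24 h, and Tepp -1.01 (SE 0.24). Rbm11, an RNA-binding protein, had -0.88 (SE 0.19) and Col13a1, a transmembrane collagen, -0.82 (SE 0.19). The other 4 were olfactory or vomeronasal receptors (Olfr559, Olfr1124, Vmn1r46 and Vmn1r52), with log2 from -0.99 to -0.79, members of families whose close copies may share probe signal. Of the 11 with a promoter window, 1 (Baz1b) held the NF-kB consensus site, against 4.51% of all windows, too few genes to tell them from others.

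The WT and KO differences were set side by side across all genes. Over 14564 genes the WT and KO differences, which use separate arrays, correlated at Pearson -0.0072 and Spearman 0.015, and 51.0% had the same sign. Genes are not independent replicates, so no p is given. Different probes of 1 gene on the same arrays correlated at only 0.067 in late minus early, over 3429 genes with 2 probes, so a coefficient near 0 does not show that the genotypes differ. After quantile normalization the Pearson coefficient was 0.0935, and leaving out the array labelled KO at 24 h it was -0.103. Past a log2 of 1, 145 genes were higher late in WT and 312 in KO, with 15 in both. They are 10.3% of the WT genes, where 2.14% of all genes passed in KO, and 4.81% of the KO genes, where 0.996% of all genes passed in WT. In the lower direction 238 WT genes and 191 KO genes had 6 in common, which is 2.52% of the WT genes against 1.31% of all genes in KO, and 3.14% of the KO genes against 1.63% of all genes in WT. The 15 shared higher genes, named after their values were seen, include Ccne1, Lats2, Thbs1, Ivns1abp, Prmt1, Qrich1 and Cd83, a surface protein of activated dendritic cells. Among genes with an SD above the median, Cd83 had a 24 h minus 6 h log2 of 4.23, so its late times were unlike.

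**Figure D4:**
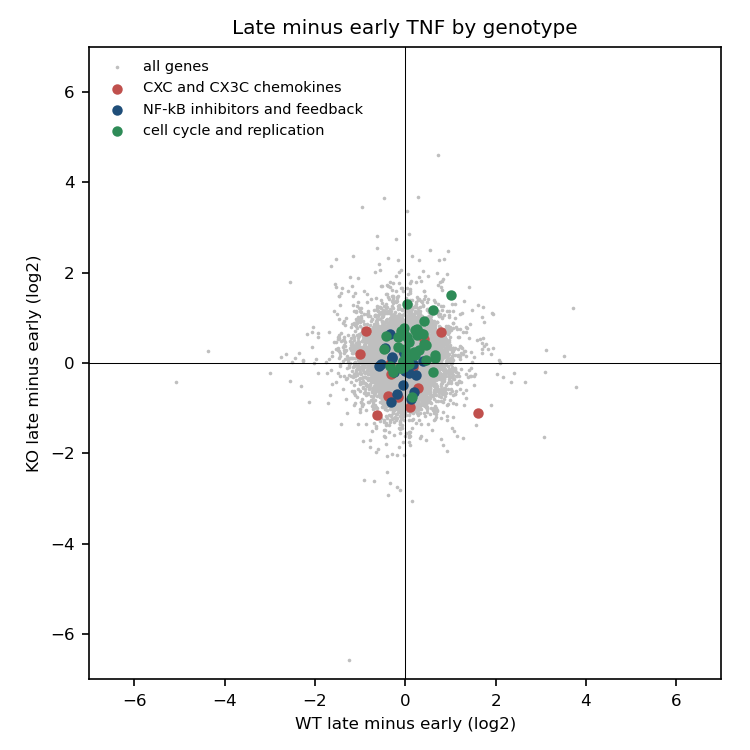
Late minus early TNF-alpha in KO (y axis, log2) against WT (x axis, log2) for 14564 genes, 1 point per gene, with 3 gene lists coloured. The cloud has little slope (Pearson -0.0072), and most listed genes lie inside it.

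The difference between the genotypes was tested as an interaction. No gene passed: 0 of 14564 (0%) in limma, with a smallest adjusted p of 0.555 (Nrtn) and 619 genes (4.25%) at an unadjusted p under 0.05. Ppbp, a platelet chemokine, was higher late in WT and lower late in KO. In WT the level was 1.29 at 1.5 h, 2.998 at 6 h and 2.83 at 24 h, and in KO it was 2.34, 1.04 and 1.42. The 2 late WT values exceeded the early one, and both late KO values lay below theirs. KO minus WT of the late minus early difference was -2.73 (SE 0.43). Rgs4, which damps signalling by G proteins, followed the same course. The WT arrays read 1.32, 2.24 and 2.56 at 1.5, 6 and 24 h, and the KO arrays 2.83, 1.20 and 1.43. Its interaction estimate was -2.60 (SE 0.42). Fgf2, a fibroblast growth factor, had -1.94 (SE 0.39). Array spread was wider late in WT and narrower late in KO, and its part in these estimates was not tested. On leaving out the array labelled KO at 24 h the estimates were -2.92 for Ppbp, -2.71 for Rgs4 and -2.05 for Fgf2. No gene passed then either, and 1 did on leaving out the WT 24 h array.

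Within single genotypes the largest differences came from 1 early array each. In WT alone 0 genes passed (0%) and 445 (3.06%) reached an unadjusted p under 0.05, and in KO alone 0 passed (0%) and 842 (5.78%) did. Nrtn, neurturin, a nerve growth factor, stood out on the WT 1.5 h array. Its levels at 1.5, 6 and 24 h were 3.75, -0.58 and -0.67 in WT and -0.22, 0.20 and -0.11 in KO. The other 5 arrays lay between -0.67 and 0.20. The adjusted p in WT was 0.110 in limma. Adgrb1, an adhesion receptor, stood out on the same array. Adgrb1 stood at 5.43 at 1.5 h in WT, then 0.29 and 0.42 at 6 and 24 h, and at 0.025, -0.044 and -0.76 in KO. Klk1, a kallikrein protease, stood out upward on the KO 1.5 h array. At 1.5, 6 and 24 h Klk1 measured -0.19, -2.22 and -0.65 in WT and 6.74, 0.30 and 0.0030 in KO. Olfr954, an olfactory receptor, stood out downward on it. Levels of -1.06, -0.43 and -0.26 were found in WT and of -4.77, -0.14 and -0.20 in KO, in the order of time. The adjusted p in KO was 0.0649 for Olfr954 in limma. Each of these 4 genes rests on 1 probe, and no array repeats the 1.5 h time within a genotype. Kcnmb1, a potassium channel subunit of smooth muscle, had a WT difference of 3.51 against 0.16 in KO. Slc38a7, an amino acid transporter, had a KO difference of -3.06 against 0.15 in WT. Col15a1, a basement membrane collagen, stood at 2.82 on the WT 1.5 h array and between -0.86 and -0.17 on the others. In KO, Sema6d, a semaphorin, had 2.50, Neurog3, a transcription factor of endocrine progenitors, 2.37 and Cypt3 -2.92. Without the array labelled KO at 24 h these were 2.54, 2.40 and -3.09, and Slc38a7 had -3.28. Cypt3 rests on 1 of its 2 probes, which read 7.42 on the KO 1.5 h array. Leaving out the WT 6 h array, so that WT had 1 late array assumed to vary like the KO arrays, gave 16 passing genes in WT and 1 in KO. Leaving out the WT 24 h array gave 1 in each, and leaving out the array labelled KO at 24 h gave 0 in both.

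Between the late times, 24 h minus 6 h, no gene passed either. In limma 0 of 14564 genes (0%) did, with 535 (3.67%) at an unadjusted p under 0.05, and 6701 genes (46.0%) ran the same way in both genotypes. Ccr1l1, a chemokine receptor-like gene, had the largest moderated t. Over 1.5, 6 and 24 h the Ccr1l1 values in WT were -0.46, -1.88 and 0.19, and those in KO -0.75, -1.81 and 0.28. The 24 h value exceeded the 6 h value in both genotypes. The estimate was 2.08 (SE 0.25). Gapt, an adaptor of blood cells, had 2.51 (SE 0.44), Tlr8, an endosomal RNA sensor, 2.21 (SE 0.49), Agbl3, a carboxypeptidase, 2.01 (SE 0.26), and Defa20, a defensin, 1.26 (SE 0.24). In the other direction Mb, myoglobin, had its lowest value at 24 h in both genotypes. In WT the level was -0.34 at 1.5 h, -0.94 at 6 h and -1.84 at 24 h, and in KO it was -0.20, -0.80 and -2.28. Its 24 h minus 6 h estimate was -1.19 (SE 0.27). Pggt1b, a protein prenyltransferase subunit, had -1.26 (SE 0.24), Htr1d, a serotonin receptor, -1.48 (SE 0.28), and Tdrd6, a germ cell protein, -1.32 (SE 0.27). A total of 70 genes passed on leaving out the array labelled KO at 24 h, among them Gapt with an estimate of 3.30, while the estimate was 2.66 for Tlr8, 1.98 for Ccr1l1 and -0.90 for Mb. The count was 5 on leaving out the WT 24 h array and 1 on leaving out the KO 6 h array.

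Genes measured by several probes allowed a check within the arrays. For the 3429 genes with 2 probes, 52.8% had late minus early values of the same sign in both. The levels of these probe pairs correlated at 0.228 to 0.407 on the 6 arrays. The probes of Thbs1 gave 0.78 and 2.26, those of Ccne1 0.58 and 1.92, and those of Mdm2 0.40 and 1.60. The probes of Lats2 gave 1.65 and 0.64, and those of Mmp3 1.64 and 0.93. Of the 89 genes examined singly 34 had 2 or more probes. In 8 of them (Trpc1, Cxcl12, Oas1a, Cnn2, Asns, Atf4, Psmc4 and Krt8) 1 probe lay past 0.5 in size and the others stayed under 0.25 in its direction. Trpc1 gave -1.82 against -0.037 and Oas1a -0.80 against -0.17.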

How the data were processed

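Per the labels' protocols, total RNA was extracted with TRIzol, 15 ug of amplified RNA was labelled, and each sample in Cy5 was hybridised together with Cy3-labelled universal mouse reference RNA. The deposited values are 1 log2 ratio per spot from the series matrix, and the normalization by the authors is not stated in any label or header. The base and the direction of the log2 values are not stated in the labels; deposited values run from -6.40 to 8.97 on the 6 treated arrays, too wide for log10.

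Probes with values on all 6 treated arrays and 1 symbol in the platform table were kept (21875 probes). The probes of a gene were averaged, and each array was then centred on its median over genes. The same test over another 15892 probes, which lack a single symbol, called 0 (531 at an unadjusted p under 0.05). Symbols were updated through the RefSeq tables. Tests used limma 3.58.1 in R 4.3.3 (lmFit and eBayes, two-sided), with a Benjamini-Hochberg adjusted p under 0.05 as the threshold within each comparison. Late minus early came from a model of genotype and lateness (3 residual degrees of freedom), the genotype difference and the values within a genotype from a model with interaction (2), and 24 h minus 6 h from a model of genotype and time (2). The tests were tried on simulated data. The comparison, the 33 gene lists and the genes to be named were chosen with earlier results of these data known. Named were Sirt6, Tnf, Ccl2, Nfkbia and Tnfaip3, the 12 genes in each direction with the largest moderated t whose pairs within a genotype all ran that way (since under 5 genes were called), and up to 6 members of a list by absolute moderated t. Not all of these are described. Alternatives changed the centring, scaling, spot-order trend, probe and gene filters, model, threshold and arrays, 1 at a time.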

Additional observations from a re-analysis of the deposited data

Results flagged for a closer look

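Over the 4 late arrays, 110 genes were examined for 1 array far from the other 3, and 7 were marked. Such a rule marks about 1 in 20 groups by chance. The gap to the nearest other array took up most of the whole range of each.

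Prmt1 lay at 0.264 on the KO 6 h array, and the other late arrays between 0.99 and 1.13. Selp lay at -0.00125 on the WT 24 h array, against 0.60 to 0.68 on the others. Slc38a7 lay at -0.13 on the KO 6 h array, against 0.31 to 0.36.

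The array labelled KO at 24 h was the distant one for the other 4 genes. Cxcl12 lay there at 0.437, against 0.18 to 0.21 on the others. Fbn2 lay at 2.14, against 1.01 to 1.19. Col15a1 lay at -0.864, against -0.25 to -0.17. Igf2r lay at 1.637, against 1.43 to 1.46.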

How the results depend on the processing

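Late minus early gave 0 called genes under every alternative except the filter that kept genes whose SD exceeded the median SD, which gave 3 (Adgrb1, Klk1 and Olfr954). That filter tests fewer genes and picks them by the differences tested, and it gave 5 in the genotype difference, 4 in WT, 9 in KO and 39 between 24 and 6 h. Scaling of arrays to equal spread gave 2 in WT, and a threshold of 0.1 gave 1 in KO. With each array left out in turn the calls ranged from 0 to 0 in late minus early, 0 to 1 in the genotype difference, 0 to 16 in WT (16 without WT 6 h), 0 to 1 in KO and 0 to 70 between 24 and 6 h (70 without KO 24 h). The cause of these counts was not tested. Models without an early array could be fitted only for late minus early and 24 h minus 6 h. Without centring, the median of all genes was -0.207 in WT and 0.255 in the genotype difference.

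Of 121 single-gene results 12 reversed at least once, all in late minus early, where the cause was not tested. Ccl7 gave -0.075 without centring, -0.27 after quantile normalization, -0.33 after scaling, -0.11 with the spot-order trend removed and -0.26 at 6 h alone. Ccl2 gave -0.073 after quantile normalization and -0.14 after scaling, and Tnf 0.0021 with the trend removed. At 6 h alone Tnf gave 0.10, Sirt6 -0.087, Ccl20 0.10, Icam1 0.23 and Vcam1 0.081, and at 24 h alone Nfkb2 gave -0.0056. With each array left out in turn, Tnf ranged from -0.76 to 0.61, Ccl2 from -0.28 to 0.61, Ccl7 from -0.13 to 0.15, Icam1 from -0.55 to 0.16, Vcam1 from -0.43 to 0.16, Sele from -0.34 to 0.57, Ccl20 from -0.94 to 0.38, Birc3 from -0.79 to 0.12, Rela from -0.34 to 0.020, Mmp8 from -0.22 to 2.74 and Sirt6 from -0.11 to 0.36. With an early array left out, the estimate is the difference in the other genotype alone. Some ends of these ranges and some reversals are therefore values of a single genotype, such as 0.61 for Tnf, which is its KO difference. Of 693 list medians under alternatives 44 moved beyond the spread between arrays.

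No paired analysis was possible because each treated group holds 1 array and its label carries no replicate number. Genotype is a term of the models, so late and early arrays were compared within a genotype. With 4 late and 2 early arrays, small differences could not be told from the spread. Large estimates did not pass either, such as log2 1.52 for Thbs1 in late minus early and -6.59 for Klk1 in KO alone.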

Other observations

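Olfactory receptor genes, chosen after their values were seen, gave 371 of 856 estimates above 0 in late minus early TNF-alpha, with a median of -0.055. Of these genes 124 (14.5%) were lower and 64 (7.48%) higher late in all 4 pairs of a late and an early array within a genotype, against 9.37% and 13.3% of all genes. Vomeronasal receptor genes gave 55 of 128 above 0, with 20 (15.6%) lower and 6 (4.69%) higher in all 4 pairs. These are chemosensory receptors of the nose, and their probes may share signal among close copies.

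Along the array, in blocks of spots in the order of the file, the median late minus early value of probes ran from -0.126 to 0.188. The highest block was the last, with 518 probes, of which 10.2% were higher at an unadjusted p under 0.05.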
